A study of Mus musculus with 22 samples.

Results

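The genes followed here encode 9 chains of cytokine receptors on CD4+ T cells: Il2ra, Il2rb, Il2rg, Il4ra, Il7r, Il21r, Il6ra, Il6st and Ifngr1. They were chosen by name, as chains for survival and type 2 cytokines and their partners, and all 9 were present among the 55291 gene names of each library. RNA-seq libraries of mouse memory T helper cells form 4 groups of 2: tissue ex-TRM, circulating ex-TRM, tissue ex-Tcirc and circulating ex-Tcirc. Each name joins the place of recovery to the population of origin, which was either memory cells resident in tissue (TRM) or memory cells that circulate (Tcirc). The labels give CD4+ T cells of female mice, host strain Balb/c and 6 to 10 weeks old, and label all 8 libraries as lung, although the design text takes circulating cells from blood. That text describes effector Th2 cells from OT-II creERT2 or DO11.10 T cell receptor transgenic donors. The recipients it names are OVA-sensitized C57BL/6 (Ly5.2) mice and BALB/c-nu/nu mice, which lack a thymus. In one experiment tamoxifen induced the recombination that traced the CD45.1+ donor cells, and at day 49 ex-TRM cells were taken from blood and lung TRM cells were sorted by CD69 and congenic markers. In the other, TRM or Tcirc cells of the lung were moved into naive BALB/c-nu/nu hosts and analysed at day 71 after OVA was given again. From 3000 to 50000 sorted cells entered each preparation. Neither the experiment nor the animal behind an RNA library is labelled, so p-values measure spread between libraries that may be technical.

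Cytokine receptors of this family are built from shared parts. The common gamma chain, encoded by Il2rg, joins a private chain to form the receptors for interleukins 2, 4, 7 and 21, and the kinases Jak1 and Jak3 bound to the chains pass the signal to Stat factors. In memory T helper cells interleukin 7 is known mainly as a survival factor, interleukin 4 as the inducer of the Th2 programme through Stat6, and interleukin 2 as a growth factor acting through Stat5. Il6st, which encodes gp130, and Il6ra form the interleukin 6 receptor, and Ifngr1 encodes the ligand-binding chain for interferon gamma.

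Circulating ex-TRM replicate 1 had 917 gene names above 0, listed all 9 chains and all 11 T cell markers at 0, and was treated as missing, which leaves 7 libraries and a single circulating ex-TRM library. Names above 0 were 37471 and 37894 in tissue ex-TRM, 29688 in circulating ex-TRM replicate 2, 30488 and 32617 in tissue ex-Tcirc, and 12785 and 7042 in circulating ex-Tcirc. Levels are in FPKM (fragments mapped to a gene, scaled by gene length and by library total), and the number of fragments behind each is unknown. Of protein-coding names with a mean of 100 to 200 FPKM over the tissue libraries, circulating ex-Tcirc replicate 2 listed 31.3% at 0, while replicate 1 and circulating ex-TRM replicate 2 listed 0%. A 0 is therefore given as listed, not as absence. T cell markers summed to between 965 and 1721 FPKM in the 7 libraries, and 11 of 11 were above 0 in each tissue library and in circulating ex-TRM replicate 2, against 10 and 6 in circulating ex-Tcirc. Cd3d, Cd247, Cd5, Lck and Zap70 were the 5 at 0 in circulating ex-Tcirc replicate 2. In bulk libraries a lower share of cells with a transcript and less transcript per cell cannot be told apart.

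**Figure D1:**
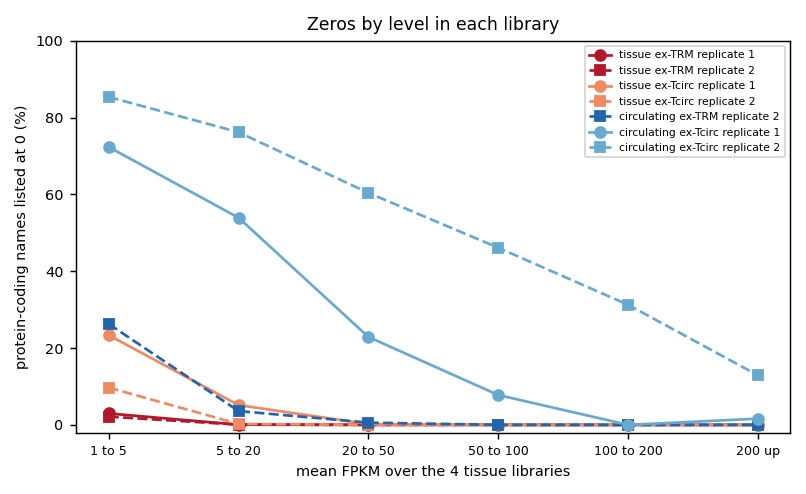
Percentage of protein-coding gene names listed at 0 (vertical axis) by mean FPKM over the 4 tissue libraries (horizontal axis), with 1 line per library. Circulating ex-Tcirc replicate 2 keeps 31.3% at 0 among names with a tissue mean of 100 to 200 FPKM, where the other 6 libraries have 0%.

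In the 4 tissue libraries Ifngr1 was the highest chain, at 107 to 207 FPKM, followed by Il7r at 94.9 to 121 FPKM and Il2rg at 92.9 to 110.0 FPKM, and these neighbours overlapped over libraries. Il2ra followed at 69.3 to 89.3 FPKM, and Il2rb, Il4ra and Il21r overlapped one another between 15.6 and 51.6 FPKM. Il6ra and Il6st stayed at 5.25 FPKM or less in every library. By the minimum used for testing, a mean of at least 20 FPKM over the 7 libraries, 7 of the 9 chains were tested, and Il6ra and Il6st were not. Only Il2ra, Il2rb and Ifngr1 were above 0 in all 7 libraries.

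**Figure D2:**
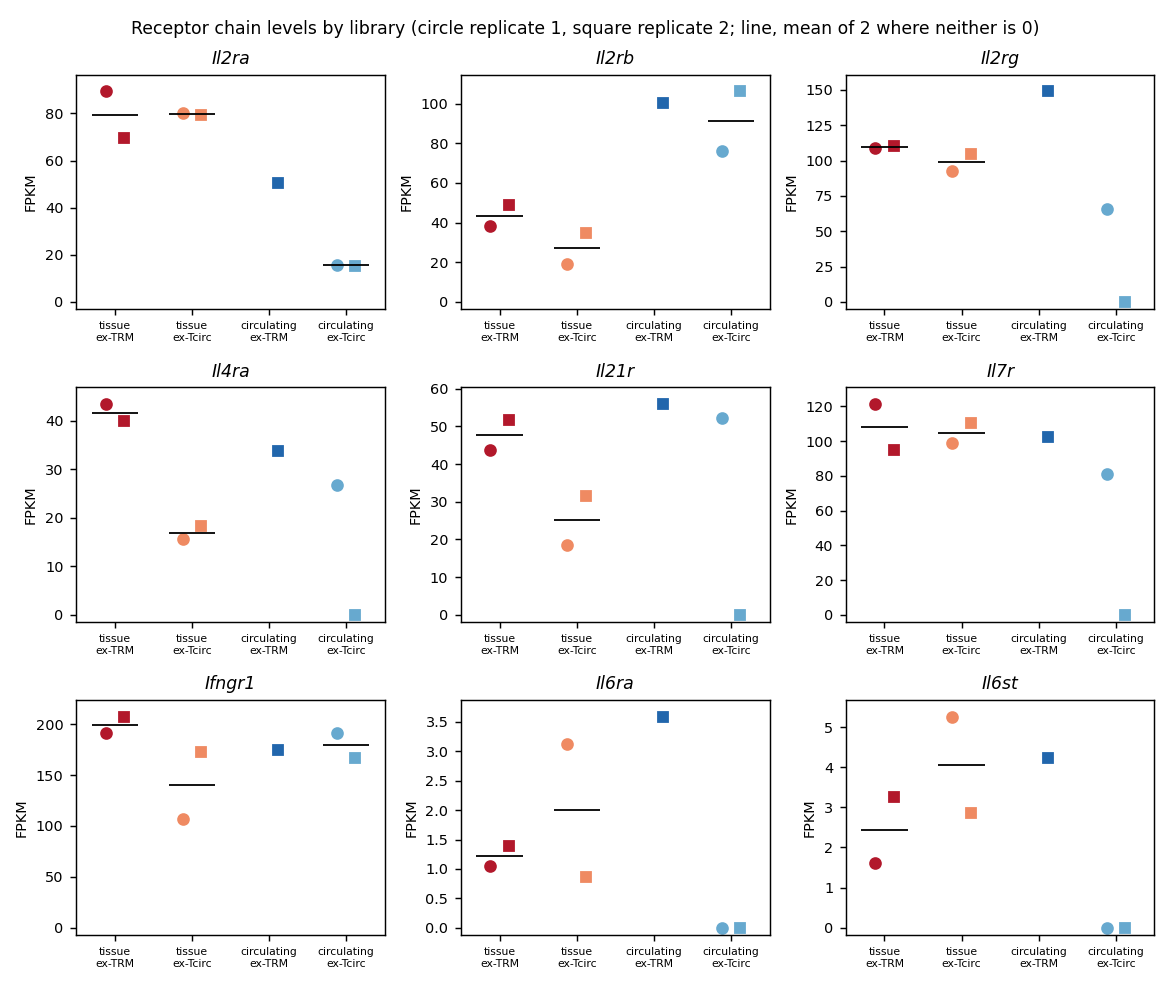
FPKM of the 9 receptor chains in the 7 libraries, by group on the horizontal axis, with circles for replicate 1, squares for replicate 2 and a line at the mean of 2 where neither is at 0. Il2ra is higher and Il2rb lower in all 4 tissue libraries than in the 3 circulating ones, and circulating ex-Tcirc replicate 2 lists 6 chains at 0.

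The first comparison set cells from tissue against cells from circulation. The alpha and beta chains of the interleukin 2 receptor lay on opposite sides: Il2ra was higher in tissue and passed the test, and Il2rb was lower in every tissue library without passing it. Il2ra encodes the chain also called CD25, which raises the affinity of the receptor for interleukin 2 without signalling itself, and lies on chromosome 2. The 250 bases before its start, at chr2:11642542-11642791 on the plus strand (RefSeq, GRCm38.p6), are shown because Il2ra was the chain that passed, with capitals marking a match to AGGAAGT, a form of the Ets motif, read on the other strand.
Il2ra: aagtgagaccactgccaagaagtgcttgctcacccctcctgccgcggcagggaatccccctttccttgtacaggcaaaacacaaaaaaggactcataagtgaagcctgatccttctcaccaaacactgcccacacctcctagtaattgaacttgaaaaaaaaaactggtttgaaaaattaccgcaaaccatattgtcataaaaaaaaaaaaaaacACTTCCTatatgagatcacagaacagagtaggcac
Each motif was searched on both strands, and matches could overlap. Of the 8 chains with a window, the windows of Il21r and Il7r lie partly inside the gene span and were left out of the counts, as were such windows of other genes. AGGAAGT was found in 7.94% of the 19827 windows that lie wholly before their gene and in 2 of the 6 such windows of these chains. A match describes the sequence and does not show that a factor binds there.

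Beside the tissue libraries, the circulating libraries differed among themselves in Il2ra. Il2ra was at 89.3 and 69.3 FPKM in tissue ex-TRM, against 50.5 FPKM in circulating ex-TRM replicate 2. In ex-Tcirc cells it was at 80.3 and 79.1 FPKM in tissue, against 15.6 and 15.4 FPKM in circulation. All 4 tissue values lay above all 3 circulating ones, and the circulating ex-TRM value lay between the tissue values and the circulating ex-Tcirc pair. Averaged over origin, log2(FPKM + 1) was 1.46 ± 0.23 (SE) higher in tissue, with a limma adjusted p of 0.0399. Within ex-Tcirc it was 2.29 ± 0.29 higher in tissue, a 4.89-fold difference on the FPKM + 1 scale, with a limma adjusted p of 0.0150. Within ex-TRM, where a single circulating library stands in and is assumed to vary like the other groups, it was 0.63 ± 0.35 higher, with a limma adjusted p of 1; there limma called 0% of genes, with 87 genes and 0 chains at an unadjusted p under 0.05. The difference of the location effects, ex-TRM minus ex-Tcirc, was -1.66 ± 0.45 and did not pass (limma adjusted p = 0.253), where 0.151% of all genes and 0 chains passed, so the effect in ex-TRM was not shown to differ from that in ex-Tcirc. Without circulating ex-Tcirc replicate 2 that difference was -1.65 with a limma adjusted p of 0.0359, in a fit that called 15.8% of all genes.

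Il2ra was 1 of 7 tested chains called for location averaged over origin, where 7.34% of 2656 genes were called, and 1 of 7 in ex-Tcirc, where 9.11% were. With 1 tissue library fewer, whichever of the 4 was dropped, it no longer passed the averaged comparison or that within ex-Tcirc. Its log2 difference was then 1.37 to 1.55 averaged over origin and 2.28 to 2.30 within ex-Tcirc. Each of these fits leaves 1 library in a tissue group, and the loss of calls was shared by all genes tested. Without circulating ex-Tcirc replicate 1 or 2 the averaged difference of Il2ra was 1.47 and 1.46. Scaled to the same sum over protein-coding names, Il2ra did not pass averaged over origin (limma adjusted p = 0.0996) or within ex-Tcirc (limma adjusted p = 0.0574). An exact permutation test, two-sided, of 4 tissue against 3 circulating libraries gave p = 0.0571, the smallest that 35 arrangements allow.

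Il2rb, on chromosome 15, encodes the beta chain, which signals and is shared with the interleukin 15 receptor. Il2rb was at 38.3 and 48.7 FPKM in tissue ex-TRM, against 100.2 FPKM in circulating ex-TRM replicate 2. Among ex-Tcirc cells its values were 19.3 and 34.96 FPKM in tissue, against 75.9 and 106 FPKM in circulation. All 4 tissue values lay below the 3 circulating ones. Log2(FPKM + 1) was lower in tissue by a log2 difference of -1.47 ± 0.34 averaged over origin (limma adjusted p = 0.107), -1.75 ± 0.43 in ex-Tcirc (limma adjusted p = 0.114) and -1.19 ± 0.53 in ex-TRM (limma adjusted p = 1). Without circulating ex-Tcirc replicate 2 the averaged difference was -1.35 ± 0.28 and passed, with a limma adjusted p of 0.0174, in a fit that called 42.2% of all genes. Without circulating ex-Tcirc replicate 1 it was -1.59 and passed with a limma adjusted p of 0.00872, where 69.5% of genes were called. The exact permutation test, two-sided, gave p = 0.0571, again the smallest possible with 4 against 3 libraries. Il2ra and Il2rb are 2 of the 7 tested chains without overlap between tissue and circulation, 1 in each direction. Over all 2656 genes, 12.1% lay wholly above and 11.8% wholly below.

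The ratio of Il2ra to Il2rb within a library does not depend on how the library was scaled. It was chosen after the values had been seen. The ratio was 2.33 and 1.42 in tissue ex-TRM, against 0.504 in circulating ex-TRM replicate 2. It was 4.17 and 2.26 in tissue ex-Tcirc, against 0.206 and 0.145 in circulating ex-Tcirc. The alpha chain was thus above the beta chain in each tissue library and below it in each circulating one. The log2 ratio averaged 1.24 ± 0.64 in tissue (SD, n = 4) and -2.02 ± 0.93 in circulation (SD, n = 3), a 9.59-fold difference that is given as a description, with no test.

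**Figure D3:**
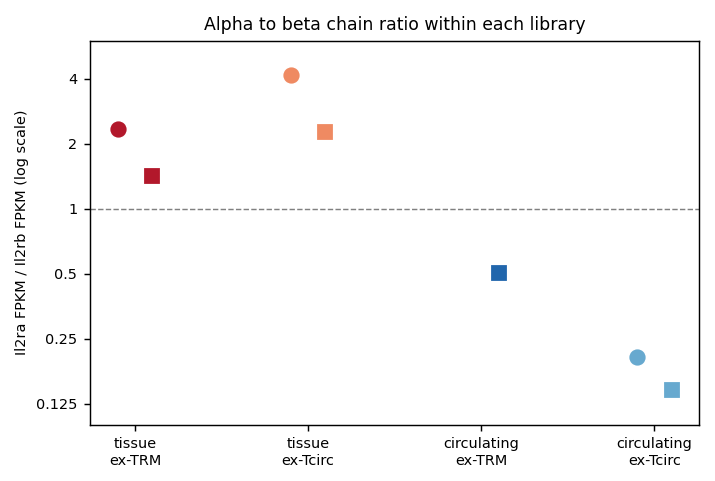
Ratio of Il2ra to Il2rb FPKM in each of 7 libraries, on a logarithmic axis, by group, with circles for replicate 1 and squares for replicate 2. The tissue libraries lie between 1.42 and 4.17, above the dashed line at 1, and the circulating libraries between 0.145 and 0.504, below it.

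Il2rg, Il7r, Il4ra and Il21r had higher fitted values in tissue averaged over origin, but none passed, and the size of each difference rests on a 0 in circulating ex-Tcirc replicate 2. Without that library the log2 differences of Il2rg (0.064) and Il7r (0.22) kept their sign, while those of Il4ra (-0.17) and Il21r (-0.65) turned. Of the 7 tested chains, 4 were listed at 0 in circulating ex-Tcirc replicate 2, as were 38.6% of all genes tested. Il2rg, the common gamma chain on chromosome X, was at 109 and 110.0 FPKM in tissue ex-TRM, against 149 FPKM in circulating ex-TRM replicate 2. In ex-Tcirc it was at 92.9 and 104 FPKM in tissue, against 66.0 and 0 FPKM in circulation. Il2rg was thus lower in tissue in the ex-TRM libraries and higher in tissue in the ex-Tcirc ones, with fitted log2 differences of -0.44 and 3.60 (limma adjusted p = 1 and 0.414). Without circulating ex-Tcirc replicate 2 the difference in ex-Tcirc was 0.57 (limma adjusted p = 0.0919), and that averaged over origin was 0.064 (limma adjusted p = 0.759). Il2rg was 1 of 7 tested chains on opposite sides of circulation in the 2 origins with no overlap in either, where 9.53% of all genes tested were.

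Il7r, on chromosome 15, encodes the interleukin 7 receptor alpha chain, which also serves in the receptor for thymic stromal lymphopoietin. Il7r was at 121 and 94.9 FPKM in tissue ex-TRM, against 102 FPKM in circulating ex-TRM replicate 2. In ex-Tcirc it was at 99.1 and 111 FPKM in tissue, against 81.1 and 0 FPKM in circulation. Leaving out the library at 0, the tissue and circulating ex-TRM values overlapped and both tissue ex-Tcirc values lay above circulating ex-Tcirc replicate 1. The log2 difference averaged over origin was then 0.22 with a 95% interval of -0.25 to 0.69 (limma adjusted p = 0.375).

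Il4ra and Il21r are neighbours on chromosome 7, 23.8 kb apart in RefSeq (GRCm38.p6). Il4ra encodes the interleukin 4 receptor alpha chain, which with another partner also binds interleukin 13, and Il21r encodes the private chain for interleukin 21. Il4ra was at 43.4 and 39.9 FPKM in tissue ex-TRM, against 33.7 FPKM in circulating ex-TRM replicate 2. In ex-Tcirc it was at 15.6 and 18.4 FPKM in tissue, against 26.8 and 0 FPKM in circulation. Without the library at 0, Il4ra was higher in tissue in ex-TRM and lower in tissue in ex-Tcirc. The fitted log2 difference in ex-Tcirc was 1.76 with all libraries and -0.63 without circulating ex-Tcirc replicate 2 (limma adjusted p = 0.536 and 0.0725).

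Il21r was at 43.8 and 51.6 FPKM in tissue ex-TRM, against 55.8 FPKM in circulating ex-TRM replicate 2. In ex-Tcirc it was at 18.5 and 31.6 FPKM in tissue, against 52.3 and 0 FPKM in circulation. Leaving out the 0, every tissue value lay below both circulating ones, as did those of 29.1% of all genes tested, and the averaged log2 difference was -0.65 with a 95% interval of -1.30 to -0.01 (limma adjusted p = 0.0923). With all 7 libraries its sign was the opposite, at 0.78 ± 1.59.

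Ifngr1, on chromosome 10, had the averaged difference nearest 0 of the tested chains over 7 libraries, while without circulating ex-Tcirc replicate 2 it was -0.15 and Il2rg was nearer 0. Ifngr1 was at 191 and 207 FPKM in tissue ex-TRM, against 174 FPKM in circulating ex-TRM replicate 2. Among ex-Tcirc cells it was at 107 and 173 FPKM in tissue, against 192 and 167 FPKM in circulation. Tissue and circulating values overlapped over both origins together and within ex-Tcirc, while both tissue ex-TRM values lay above the circulating ex-TRM value. The averaged log2 difference was -0.10 with a 95% interval of -0.78 to 0.58 (limma adjusted p = 0.834).

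**Figure D4:**
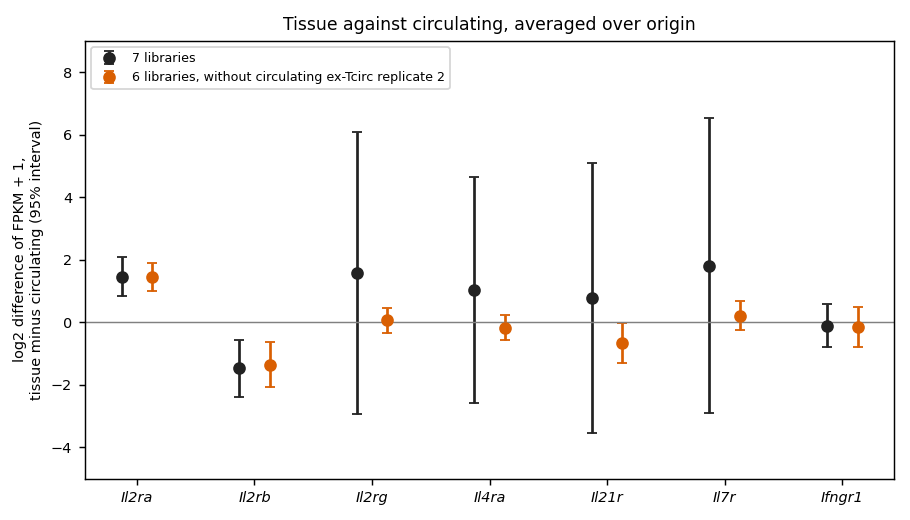
Log2 difference of FPKM + 1, tissue minus circulating, averaged over origin, for the 7 tested chains, with points at the limma estimate and bars for 95% intervals, over 7 libraries (black) and over 6 without circulating ex-Tcirc replicate 2 (orange). Il2ra stays near 1.46 and Il2rb is at -1.47 and -1.35, while the intervals of Il2rg, Il4ra, Il21r and Il7r narrow around smaller differences without that library.

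Il6ra and Il6st, on chromosomes 3 and 13, were near the limit of detection. Il6ra was at 1.04 and 1.40 FPKM in tissue ex-TRM, 3.58 in circulating ex-TRM replicate 2, and 3.13 and 0.867 in tissue ex-Tcirc, and both circulating ex-Tcirc libraries listed it at 0. Il6st was at 1.61 and 3.26 FPKM in tissue ex-TRM, 4.23 in circulating ex-TRM replicate 2, and 5.25 and 2.85 in tissue ex-Tcirc, and was likewise at 0 in both circulating ex-Tcirc libraries. At tissue means of 1 to 5 FPKM, 72.3% and 85.4% of protein-coding names were at 0 in those libraries. With a looser filter that asks 1 FPKM in 2 libraries, Il6st passed in ex-Tcirc (limma adjusted p = 0.0278) and Il6ra did not (limma adjusted p = 0.0942), where 21.1% of 28325 genes passed. Both genes lay on opposite sides of circulation in the 2 origins with no overlap in either, as did 22.8% of genes under that filter. No fold is given for them, since the circulating ex-Tcirc group is at 0.

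Markers of cells other than T cells were uneven between places of recovery. Myeloid markers summed to 75.6 and 112 FPKM in tissue ex-TRM, against 80.7 FPKM in circulating ex-TRM replicate 2, and to 182 and 53.6 FPKM in tissue ex-Tcirc, against 789 and 308 FPKM in circulating ex-Tcirc. Markers of lung epithelium summed to 18.1 and 13.9 FPKM in tissue ex-TRM and 28.9 FPKM in circulating ex-TRM replicate 2, and to 93.3 and 11.1 FPKM in tissue ex-Tcirc, against 588 and 0 FPKM in circulating ex-Tcirc. The 588 FPKM, in circulating ex-Tcirc replicate 1, was made up of Sftpc (421 FPKM), Sftpa1 (93.1 FPKM) and Scgb1a1 (73.9 FPKM). Epcam and Cdh1, of the same list, went the other way, listed at 0 in each circulating library and above 0 in each tissue library. Across tissue, Epcam ranged from 2.77 to 7.24 FPKM and Cdh1 from 5.11 to 9.92 FPKM. Antigen presentation markers summed to 19.1 and 30.5 FPKM in tissue ex-TRM, against 57.6 FPKM in circulating ex-TRM replicate 2. In ex-Tcirc they summed to 115 and 27.7 FPKM in tissue, against 448 and 7.62 FPKM in circulation. Without circulating ex-Tcirc replicate 2, Cd74 and H2-Ab1 of that list were lower in tissue, with averaged log2 differences of -2.18 and -1.74. All 4 neutrophil markers were at 0 in all 7 libraries. The part of these other cells in the location differences was not tested. Foxp3 and Ikzf2, markers of regulatory T cells, which carry much Il2ra, summed to 3.82 and 5.08 FPKM in tissue ex-TRM, against 9.47 FPKM in circulating ex-TRM replicate 2. In ex-Tcirc they summed to 13.1 and 8.64 FPKM in tissue, against 2.89 and 8.88 FPKM in circulation. Foxp3 alone was at 2.65 and 2.88 FPKM in tissue ex-TRM, against 5.52 FPKM in circulating ex-TRM replicate 2. In ex-Tcirc Foxp3 was at 8.30 and 6.27 FPKM in tissue and at 0 in both circulating libraries, so Ikzf2 made up the circulating sums. At tissue means of 5 to 20 FPKM, those 2 libraries listed 53.9% and 76.2% of protein-coding names at 0. The part of regulatory T cells in the Il2ra difference was not tested.

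The second comparison set ex-TRM against ex-Tcirc cells within tissue, where all 4 libraries detected all 9 chains. Il4ra had the largest fitted difference of the tested chains, at 41.7 ± 2.44 FPKM in tissue ex-TRM and 17.0 ± 1.97 FPKM in tissue ex-Tcirc (SD, n = 2 each). Il21r averaged 47.7 ± 5.57 FPKM in tissue ex-TRM and 25.0 ± 9.23 FPKM in tissue ex-Tcirc (SD, n = 2 each). Both pairs were apart, while Il2ra, at 79.3 ± 14.1 and 79.7 ± 0.821 FPKM in tissue ex-TRM and tissue ex-Tcirc, and Il7r overlapped. Il4ra, Il21r, Il2rb, Il2rg and Ifngr1, 5 of the 7 tested chains, were higher in both ex-TRM libraries than in both ex-Tcirc libraries, where 40.4% of all genes were, and 0 of 7 were lower in both, where 12.5% were. That count depends on the scaling. Scaled by median of ratios, 4 of 7 were higher in both ex-TRM libraries (21.2% of all genes) and 0 lower, and with protein-coding scaling 3 were higher (16.2%) and 1, Il2rg, was lower (29.9%). With T cell gene scaling Il4ra and Il21r, 2 of 7, were higher in both (4.74% of all genes), while Il2ra, Il2rg and Il7r, 3 of 7, were lower in both (55.7%).

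No chain passed the test between origins in tissue. The 7-library limma fit called 0 of 2656 genes, 0% of them, with 7 genes and 0 chains at an unadjusted p under 0.05. Its spread takes in the zeros of circulating ex-Tcirc replicate 2, which gave Il4ra a log2 difference of 1.25 ± 1.69. A fit to the 4 tissue libraries alone, added after seeing the data, gave Il4ra 1.25 ± 0.19 and Il21r 0.95 ± 0.29, both with a limma adjusted p of 0.488. That fit also called 0% of its 2818 genes, with 215 genes at an unadjusted p under 0.05, among them Il4ra and Il21r. Among markers of other cells in the same libraries, B cell markers summed to 19.9 and 50.7 FPKM in tissue ex-TRM, against 392 and 62.4 FPKM in tissue ex-Tcirc. Their part in the differences between origins was not tested. T cell markers summed to 1389 and 1458 FPKM in tissue ex-TRM, against 1019 and 1276 FPKM in tissue ex-Tcirc.

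The 250 bases before the start of Il4ra, at chr7:125552021-125552270 on the plus strand (RefSeq, GRCm38.p6), are shown because Il4ra had the largest fitted difference of the tested chains between origins in tissue. Capitals mark 3 matches to ATGNAAAT, a form of the octamer motif, which was found in 5.81% of the windows wholly before a gene and in 1 of the 6 of these chains.
Il4ra: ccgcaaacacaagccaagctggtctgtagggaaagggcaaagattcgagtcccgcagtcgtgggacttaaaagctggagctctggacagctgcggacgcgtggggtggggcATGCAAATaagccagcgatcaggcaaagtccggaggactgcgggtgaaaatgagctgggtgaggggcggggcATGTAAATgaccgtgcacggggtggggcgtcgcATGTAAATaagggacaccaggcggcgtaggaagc
The Stat motif TTCNNNGAA was found in 7.63% of those windows and in 0 of the 6, which says only that these letters do not occur there. The Il7r window, left out of the counts, holds 1 match to TTCNNNGAA and 1 to AGGAAGT.

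Genes around the receptors were read from 5 lists. Of 9 cytokine ligand genes, 0 reached the minimum, so none was tested. For interleukin 4 itself, the tissue ex-TRM libraries gave 7.85 and 11.9 FPKM of Il4, the tissue ex-Tcirc libraries 0 and 3.85 FPKM, and the 3 circulating libraries 0. At tissue means of 5 to 20 FPKM, the circulating ex-Tcirc libraries listed 53.9% and 76.2% of protein-coding names at 0. Circulating ex-TRM replicate 2 listed 3.59% of them at 0. Of 24 other receptor chains 3 were tested and 0 passed for location averaged over origin, with a median log2 difference of 0.63, beside 0.43 over all genes. Without circulating ex-Tcirc replicate 2 their median was 0.018, beside -0.048 over all genes, and 2 of the 3 passed: Il27ra, a receptor chain for interleukin 27, as higher in tissue (limma adjusted p = 0.00933) and Ifnar1, a chain of the interferon alpha and beta receptor, as lower (limma adjusted p = 0.0112). Of 11 Jak kinases and Stat factors 8 were tested and 0 passed, with a median of 0.98, which turned to -0.26 with 0 of 8 above 0 without that library. Jak1, the kinase that serves all 4 interleukin receptors named above, was at 113 and 111 FPKM in tissue ex-TRM, against 107 FPKM in circulating ex-TRM replicate 2. Its ex-Tcirc values were 74.7 and 101 FPKM in tissue, against 111 and 124 FPKM in circulation. Of 11 regulators of Il2ra and Il7r 5 were tested and 0 passed, with a median of 1.36, against 0.011 and again 0 passing without that library.

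Of 13 cytokine response genes 6 were tested, with a median of 1.20, and Socs2 passed as higher in tissue. Without circulating ex-Tcirc replicate 2, 7 were tested with a median of 0.36, and Socs2, Cish and Bcl2l1 passed as higher and Socs3 as lower, in the fit that called 42.2% of all genes. The size of the Bcl2l1 difference rests on a 0 in circulating ex-Tcirc replicate 1, since the library left out listed 23.5 FPKM of it. Circulating ex-TRM replicate 2 listed 29.1 FPKM of Bcl2l1, and its lowest tissue value was 31.1 FPKM, in tissue ex-Tcirc replicate 1. Socs2, a feedback inhibitor induced by Stat5, was at 89.2 and 112 FPKM in tissue ex-TRM, against 99.2 FPKM in circulating ex-TRM replicate 2. Its ex-Tcirc values were 40.1 and 75.0 FPKM in tissue, against 0 in both circulating libraries. Its limma adjusted p was 0.0315 averaged over origin and 0.00667 in ex-Tcirc, and both calls rest on that pair of zeros. Il27ra passed in ex-Tcirc over 7 libraries (limma adjusted p = 0.0154) and was also at 0 in both circulating ex-Tcirc libraries. Without replicate 2 of them it also passed for the difference of location effects (limma adjusted p = 0.00929). Cish, another Stat5-induced inhibitor, was at 76.5 and 73.9 FPKM in tissue ex-TRM, against 42.6 FPKM in circulating ex-TRM replicate 2. In ex-Tcirc it was at 41.6 and 73.9 FPKM in tissue, against 14.5 and 0 FPKM in circulation, and it did not pass over 7 libraries. With circulating ex-Tcirc replicate 2 left out, Cish was higher in tissue by a log2 difference of 1.34 averaged over origin (limma adjusted p = 0.0149) and 1.87 in ex-Tcirc (limma adjusted p = 0.0150). The groups overlapped, since 1 tissue value, 41.6 FPKM, lay below the circulating ex-TRM value.

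Genes of a like pattern were ranked by Pearson r of log2(FPKM + 1) over the 7 libraries among 1095 genes above 0 in all of them. Trbj1-3 (r = 0.99) and Traj21 (r = 0.99), both T cell receptor joining segments, came first for Il2ra. Spn (r = 0.99) and Rnf19b (r = 0.99) came first for Il2rb, and Hipk1 (r = 0.98) and Prex1 (r = 0.96) for Ifngr1. For the chains listed at 0 in circulating ex-Tcirc replicate 2, the most alike genes were Tpt1-ps5 and Tecpr1 for Il2rg, Brf1 and Tecpr1 for Il7r, Wdr43 and Prkch for Il4ra, Rnf166 and Wdr43 for Il21r, Nin and Zfand3 for Il6ra, and Nin and Eif5 for Il6st. The 7 points share library depth, so these likenesses are descriptions.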

How the data were processed

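Per the file headers, the authors deposited 1 FPKM value per gene name and library. Build mm10, HISAT2 2.2.1, StringTie 3.0.1 and Trim Galore 0.6.7 appear among the tools in the submitters' processing notes, with no role or order. The sources used here give neither annotation nor strand setting, so antisense and overlapping genes cannot be told apart, and total read counts are unknown. Groups come from the sample titles. The series has 22 samples, of which 14 ATAC-seq samples are not analysed here.

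Values of repeated names were summed to 55291 names. In R 4.3.3, limma 3.58.1 modelled log2(FPKM + 1) of 7 libraries with 4 group means and an intensity trend, over genes with a mean of at least 20 FPKM (2656 genes), and p-values were adjusted by Benjamini-Hochberg over all of them (threshold 0.05). The pseudocount understates differences of low genes. The 5 comparisons were location averaged over origin, location within each origin, origin within tissue, and the difference of location effects. Exact permutation tests used log2(FPKM + 1). The fit was tested on simulated data with 1 common spread and no added zeros. That test does not cover a library with many zeros such as circulating ex-Tcirc replicate 2. Members and lists were chosen with earlier results of these data known, and list genes that passed, up to 5 a list, and the 2 most alike genes for each chain were named; Il4, Jak1, Cish, Bcl2l1, Socs3 and Ifnar1 were named after their values were seen.

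Alternatives were another pseudocount, other filters, 4 scalings, a replicate block, all 8 libraries, only the groups compared, and each library left out. Promoter windows are the 250 bases before each gene's start in RefSeq GRCm38.p6, where 8 of 9 chains matched and Il2rb did not. The start used for Il21r and Il7r lies inside the gene span of the RefSeq gene table, so that 177 and 65 bases of their windows are inside the gene; this held for 39.6% of all windows, which were left out of motif counts. A further motif, of NF-kB, is not reported here.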

Additional observations from a re-analysis of the deposited data

Results flagged for a closer look

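Location effects of 3 of the 9 chains pointed opposite ways in the 2 origins in every library used, as did those of 22.8% of the 28325 genes under the looser filter. For the 7 tested chains the count was 1, Il2rg, beside 9.53% of 2656 genes. Il2rg was lower in both tissue ex-TRM libraries than in the circulating ex-TRM library and higher in both tissue ex-Tcirc libraries than in both circulating ones. The difference of its location effects, ex-TRM minus ex-Tcirc, was -4.04 on the log2 scale (limma adjusted p = 0.841), beside a median of -1.04 over all genes, and -1.01 without circulating ex-Tcirc replicate 2 (limma adjusted p = 0.104). Il6ra and Il6st had too low a mean for the 7-library test, and both circulating ex-Tcirc libraries list them at 0, so the difference is given in FPKM. It was -4.36 FPKM for Il6ra and -5.86 FPKM for Il6st, and neither passed on the log2 scale under the looser filter (limma adjusted p = 0.116 and 0.0763). The circulating ex-TRM side is a single library.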

How the results depend on the processing

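Over 35 chain comparisons and 547 alternative values, 514 kept their sign, 33 turned, and 0 of those that turned passed the threshold. Il2ra stayed positive for location averaged over origin in 15 of 15 alternatives, at 1.04 to 2.88, with limma adjusted p from 0.00173 to 0.675, and passed in 5. The cause of each change below was not tested, except that the 8-library fit adds a library at 0 for every chain.

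For location averaged over origin, where 195 genes and 1 chain passed, 3618 genes passed under the looser filter and 1 gene and 0 chains where a gene had to be detected in each of 7 libraries. Scaling by median of ratios gave 67 genes and 0 chains, protein-coding scaling 194 genes and 0 chains, and 8 libraries 0 genes and 0 chains. T cell gene scaling gave 0 genes and 0 chains, with Il2ra at 1.04. Its factor for circulating ex-Tcirc replicate 2, where 5 of 11 markers were at 0, was 0.210, against 0.954 to 1.88 in the other libraries. Scaling to T cell genes above 0 in all 7 libraries, chosen after seeing the data, gave that library a factor of 0.951. It gave 207 genes and 1 chain, with Il2ra at 1.66. In ex-Tcirc, where 242 genes and 1 chain passed, the looser filter gave 5984 genes and 2 chains, the detected-in-all filter 13 genes, and 8 libraries 0 genes and 0 chains. There, protein-coding scaling gave 247 genes and 0 chains, T cell gene scaling 223 genes and 0 chains, and only the groups compared 199 genes and 0 chains. In ex-TRM, where 0 genes passed (87 at an unadjusted p under 0.05 by limma), only the groups compared gave 3. For the difference of location effects, where 4 genes and 0 chains passed, the counts of genes were 179 with a pseudocount of 0.1, 2099 under the looser filter, 112 when scaled to T cell genes above 0 in all 7 libraries, and 0 with the detected-in-all filter, with 8 libraries, with median-of-ratios scaling and with T cell gene scaling. With T cell gene scaling 1 chain had no overlap between tissue and circulation, against 2. The share over all genes was not worked out for that scaling, so the count is not a result about the chains.

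With the replicate number as a block, 0 genes and 0 chains passed for location averaged over origin, 158 genes and 0 chains in ex-Tcirc, and 0 genes for the difference of effects, and in ex-TRM Il4ra turned to -0.49 and Il7r to -1.02. Same-numbered libraries deviated from their group means with r of 0.007, -0.040 and -0.094. With 2 libraries in a group these deviations only restate the difference between replicates, which in circulating ex-Tcirc takes in the zeros of replicate 2. They cannot show whether same-numbered libraries share an animal, which is not labelled.

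Leaving out 1 library at a time gave 0 to 1860 genes and 0 to 6 chains for location averaged over origin, 0 to 1969 genes and 0 to 6 chains in ex-Tcirc, 0 to 60 genes in ex-TRM, 0 to 1704 genes and 0 to 5 chains for the difference of effects, and 2 to 4 chains without overlap. The highest chain counts were without circulating ex-Tcirc replicate 1, where 69.5%, 73.5% and 63.6% of all genes passed. For chains without overlap, the share over all genes was worked out only without circulating ex-Tcirc replicate 2. There 13.7% of 2656 genes lay wholly above in tissue and 29.1% wholly below, so these counts are not results about the chains. Ranges for chains that turned were, for averaged location, -0.65 to 2.21 for Il21r, -0.17 to 2.23 for Il4ra and -0.27 to 0.0684 for Ifngr1. In ex-Tcirc they were -1.08 to 4.66 for Il21r and -0.63 to 4.16 for Il4ra, and in ex-TRM -0.10 to 0.25 for Il7r. Between origins in tissue they were -0.20 to 0.16 for Il2ra and -0.14 to 0.21 for Il7r, and for the difference of effects -4.88 to 0.85 for Il21r and -3.87 to 0.93 for Il4ra.

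Chains also turned with 8 libraries: Il2rb 0.19 and Ifngr1 1.76 for averaged location, Il2rb 2.14, Il2rg 3.17 and Il21r 2.69 in ex-TRM, and Il2ra 1.18, Il4ra 1.09 and Il21r 0.90 for the difference of effects. Median-of-ratios scaling gave Ifngr1 0.0938 for averaged location, Il21r 0.0647 in ex-TRM and Il2ra 0.0239 between origins in tissue. T cell gene scaling gave Il21r 0.12 in ex-TRM, and Il2rg -0.30 and Il7r -0.41 between origins. Scaling to T cell genes above 0 in all 7 libraries, chosen after seeing the data, gave Ifngr1 0.0936, Il21r 0.0075 in ex-TRM, Il2rg -0.24 and Il7r -0.36. Protein-coding scaling gave Il2rg -0.0657 and Il7r -0.18. Scaling moved the median of all genes by -0.34 to 0.20 for averaged location, by -1.07 to 0.16 in ex-Tcirc, by -0.44 to 0.04 between origins in tissue and by 0.06 to 0.33 in ex-TRM. For the difference of effects it moved by 0.08 to 1.45.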
